A study of Mus musculus with 5 samples.

Results

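Basal squamous cells of mouse colon tumors were examined in 4 single-cell RNA libraries of tumors under chemotherapy. They numbered 388 of the 7396 cells kept from treated tumors and of the 8491 cells kept in the series. All 4 tumor libraries came from wild-type (WT) mice whose tumors were induced with the mutagen azoxymethane and the irritant dextran sodium sulfate (AOM/DSS) and treated with 5FU+Irinotecan. Tumors were taken at day 1 in 2 replicates (the early group) and at day 3 and day 6 with 1 library each (the late group), and the animals were of a C57BL/6J or mixed C57BL/6J;129 background and of both sexes. The fifth library, from the colon of an untreated WT mouse after a dissociation that enriches stroma, held 0 squamous cells of 1095, which allows a share of up to 0.274%. No untreated tumor entered the comparisons, so early and late differ in time under or after treatment and not in treatment.

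The cells were chosen on their own raw counts of unique molecular identifiers (UMIs, each standing for 1 captured RNA molecule). A cell was squamous with at least 10 UMIs of the keratins Krt5 and Krt14 together and with more of these than of the columnar genes Krt8, Krt18 and Lgals4. Squamous cells were then ordered by R, the log2 ratio of differentiation genes (Krt13, Krt4, Krt6b, Spink5 and Psca, plus 1 UMI) to basal genes (Krt15, Krt17, Col17a1 and Trp63, plus 1 UMI). The cells were cut into 3 parts by R in each library, of equal size but for ties (6 cells of day 1 replicate 2 lay on the cut and were kept as basal), and those with the lowest R are called basal here and those with the highest R suprabasal. Day 1 replicate 1, day 1 replicate 2, day 3 and day 6 held 51, 190, 216 and 693 squamous cells, of which 17, 68, 72 and 231 were basal. Values of the 4 libraries are given in this order throughout. By construction the basal share of squamous cells is fixed, and the levels of the 14 genes that chose the cells are a description and not a result.

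A stratified squamous epithelium renews itself from its lowest layer, where cells sit on a basement membrane, divide, and move upward as they stop dividing and build the tough outer layers. Basal cells are held to the membrane by hemidesmosomes, which join keratins inside the cell through integrin α6β4 and collagen XVII to laminin-332 outside it, and p63, encoded by Trp63, maintains the basal state. The normal colon is lined by a columnar epithelium, and its nearest squamous tissue is the anal canal.

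The basal cells carried different keratins in different libraries, although the rule weighed their UMIs alike. Levels here and below are counts per 1000000 UMIs (CPM) in the summed UMIs of the cells. Krt15, a keratin of slowly renewing basal cells, was at 869, 82.7, 2711 and 4260 CPM in the basal cells of the 4 libraries. Krt17, a keratin of activated and wounded squamous epithelium, was at 1812, 4074, 2686 and 1082 CPM. The late libraries were thus the higher for Krt15, while for Krt17 day 1 replicate 2 was highest and day 6 lowest. Of the UMIs of the 4 basal genes of the rule, Krt15 gave 20.9%, 1.498%, 44.6% and 67.4% and Krt17 gave 43.5%, 73.8%, 44.2% and 17.1%. Cells with more Krt15 than Krt17 were 9 of 17, 2 of 68, 39 of 72 and 200 of 231. In day 1 replicate 2 the basal Krt15 level of 82.7 CPM stood beside 52.2 CPM in columnar cells, and the share of cells with a Krt15 UMI was at the columnar background: after thinning each cell to 1000 UMIs, 2.94% of them held a Krt15 UMI, against 4.96% of the columnar cells of that library (median depths of 3699 and 5357.5 UMIs before thinning). At day 6, 90.0% of basal cells and 31.5% of columnar cells held 1 (median depths 5774 and 2845.5 UMIs). The low Krt15 of day 1 replicate 2 was not particular to its basal cells. After thinning, 8.47% of its middle and 4.76% of its suprabasal cells held a Krt15 UMI. At day 3 the shares were 68.1% of basal, 56.9% of middle and 33.3% of suprabasal cells.

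The other basal genes of the rule were well above the columnar level in every library. Col17a1, the hemidesmosomal collagen, was at 725, 986, 490.3 and 288 CPM in basal cells and at 0.957, 5.01, 19.8 and 9.43 CPM in columnar cells. Trp63 was at 756, 379, 194 and 692 CPM in basal cells and at 8.38, 1.74, 14.8 and 13.0 CPM in columnar cells. Krt5, of the gate, was at 4499, 7041, 4722 and 6231 CPM in basal and at 6399, 6336, 6045 and 6900 CPM in suprabasal cells. Basal cells were thus the higher for Krt5 in day 1 replicate 2 alone. Krt14, also of the gate, leaned to the suprabasal end in day 1 replicate 1, day 1 replicate 2 and day 3. It had 876, 6125 and 1600 UMIs in their basal cells. In their suprabasal cells, which held fewer UMIs in all, it had 1470, 10601 and 1669 UMIs. The highest R among basal cells was -0.74, -2.32, -1.15 and -1.05, and the lowest R among the squamous cells just outside was -0.36, -2.17, -1.14 and -1.02, so the edge of the choice fell within a continuous range. It also fell at a lower R in day 1 replicate 2, where 50.5% of squamous cells lay under the cut that takes the lowest of 3 parts of all libraries together (-1.22), against 29.4%, 32.4% and 29.7% in the others.

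**Figure D1:**
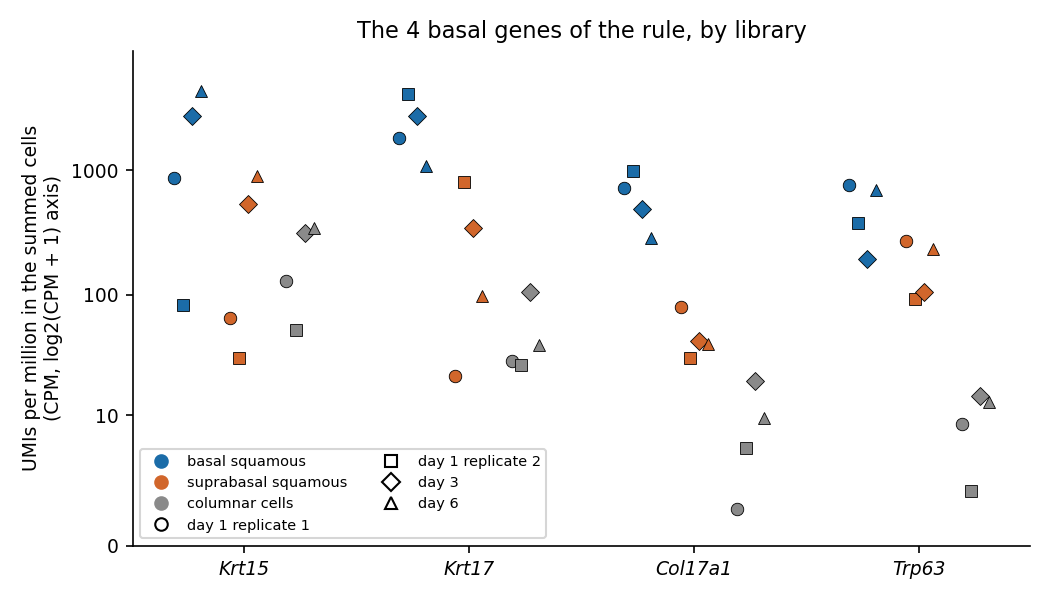
Level of the 4 basal genes of the rule (CPM in summed cells, on a log2(CPM + 1) axis) in basal and suprabasal squamous cells and in columnar cells, 1 point per library with a shape for each. Krt15 and Krt17 differ in order between libraries, and Krt15 of the basal cells of day 1 replicate 2 (82.7 CPM) lies near the columnar cells of that library (52.2 CPM).

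The libraries held 5132360 to 16904947 UMIs in all, and the basal cells 160042, 459454, 320220 and 1472051 UMIs, so that day 6 carried most of the basal counts and day 1 replicate 1 the fewest. Median depth was 8940, 3699, 3287 and 5774 UMIs per basal cell and 7279, 2427, 3116 and 6928 UMIs per suprabasal cell. Between 4 and 41 cell barcodes recurred between any 2 libraries. The libraries also differ in index structure, single for day 1 replicate 1 and day 3 and dual for the rest, and these 2 kinds were sequenced on different machines. Xist, transcribed from the inactive X, was at 0, 0.119, 27.2 and 101 CPM over all kept cells, while Y-linked Eif2s3y was at 81.4, 88.9, 0 and 0.124 CPM: the early libraries carried Y-linked RNA and the late libraries Xist, so the sex of the mice and the time cannot be told apart in any comparison of late with early. Markers of other cell types moved with R as well. At least 2 UMIs of 9 immune markers were found in 17.6%, 23.5%, 16.7% and 13.0% of basal cells and in 35.3%, 28.6%, 22.2% and 32.0% of suprabasal cells, and the summed level of these markers was 62.5, 298, 169 and 229.6 CPM in basal against 355, 649.6, 251 and 332.3 CPM in suprabasal cells, with their part in the results below not tested except where cells with such UMIs were left out.

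The first comparison asked which genes outside the rule differed between basal and suprabasal cells of the same tumors. UMIs were summed per library and end of R, and edgeR's quasi-likelihood test with the library as a block was fitted to 7321 genes, the 14 genes of the rule left out. At a Benjamini-Hochberg adjusted p under 0.05, 990 genes differed (13.5% of those tested), 447 of them higher in basal cells (6.11%) and 543 higher in suprabasal cells (7.42%). Of the 990, 845 had the same sign in all 4 libraries, against 2131 of all 7321 tested. The tested genes were measured in the very cells that the rule had ordered, so the comparison describes what accompanies R across 4 libraries and is not a test of whether 2 kinds of cells exist. The middle cells, which did not enter the fit, had a mean level between the 2 ends for 382 of the 447 genes and for 449 of the 543. These genes were chosen because the ends differ, and the middle cells lie between the ends in R by construction. The 2 counts are therefore a description and not a test. The median log2 change of all genes was 0.03. Without the scaling between sums (TMM) this median was 0.15 and the calls split into 639 higher and 434 lower in basal cells.

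Genes outside the rule that were higher in basal cells are given first, from the largest change. The 12 named in each direction were chosen among called genes with the same sign in all 4 libraries. Their agreement in sign is therefore a condition of the choice and not a result. Tnc, which encodes the matrix glycoprotein tenascin-C of wounds and tumor stroma, was first at 156, 429, 109 and 113 CPM in basal cells and 0, 5.10, 10.5 and 2.97 CPM in suprabasal cells, without overlap (log2 change 5.11 ± 0.35, SE; adjusted p = 2.88e-08; 34.4-fold). It was found in 152 of 388 basal and 9 of 383 suprabasal cells. In columnar cells Tnc was at 6.70, 19.98, 6.16 and 5.81 CPM. Because tenascin-C is also made by fibroblasts, the stromal and endothelial list was read beside it: its 8 genes summed to between 82.7 and 256 CPM in basal and between 21.8 and 237 CPM in suprabasal cells, and the fibroblast collagen Col1a1 stood at 12.5, 10.9, 24.98 and 2.72 CPM in basal cells. Of the 8 stromal genes 1 passed the filter on low counts, Dcn, which encodes the fibroblast proteoglycan decorin. It was higher in basal cells (1.15 ± 0.37, adjusted p = 0.042), at 162, 32.6, 156 and 212 CPM against 0, 30.6, 150.2 and 54.1 CPM, and columnar cells carried it at 77.3, 133, 105 and 96.6 CPM. How far RNA of fibroblasts entered these values was not tested.

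Wnt10a, a Wnt ligand of squamous epithelium and hair follicles, was at similar levels in all 4 libraries, at 150.0, 159, 122 and 164 CPM in basal cells and 7.25, 10.2, 13.97 and 10.1 CPM in suprabasal cells (3.71 ± 0.27, adjusted p = 5.73e-08). Sostdc1, a secreted antagonist of Wnt and BMP signals, was at 100.0, 233, 65.6 and 122 CPM against 0, 25.5, 3.49 and 4.16 CPM (3.95 ± 0.34). Fst, the activin antagonist follistatin, was at 119, 953, 249.8 and 67.9 CPM against 14.5, 127, 31.4 and 10.1 CPM (2.72 ± 0.20). In all 3 the basal level was above the suprabasal level within each library, as the choice required, and for Fst the groups overlapped across libraries. Snai2, the transcription factor Slug of basal keratinocytes, was at 68.7, 45.7, 34.4 and 141 CPM in basal and 0, 10.2, 0 and 19.0 CPM in suprabasal cells (2.80 ± 0.36, adjusted p = 2.62e-05), and its columnar level stayed between 0.957 and 4.38 CPM. Pappa, a protease that frees insulin-like growth factors (2.70 ± 0.28), Htra1, a secreted protease (2.57 ± 0.28), Serpinh1, the collagen chaperone HSP47 (2.55 ± 0.39), Hpgd, the enzyme that inactivates prostaglandins (2.59 ± 0.28), Kcnh1, a potassium channel (2.97 ± 0.49), Aspa, aspartoacylase (2.66 ± 0.38), and U90926, a transcript of unsettled function (3.81 ± 0.33), completed the 12 largest changes. Hpgd set the libraries apart: its basal level was 756, 8.71, 175 and 270.4 CPM, and in day 1 replicate 2, where Krt15 was near the columnar level, it was close to the suprabasal 5.10 CPM. In day 1 replicate 1, 117 of 178 U90926 UMIs and 13 of 19 Fst UMIs of basal cells lay in 1 cell.

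**Figure D2:**
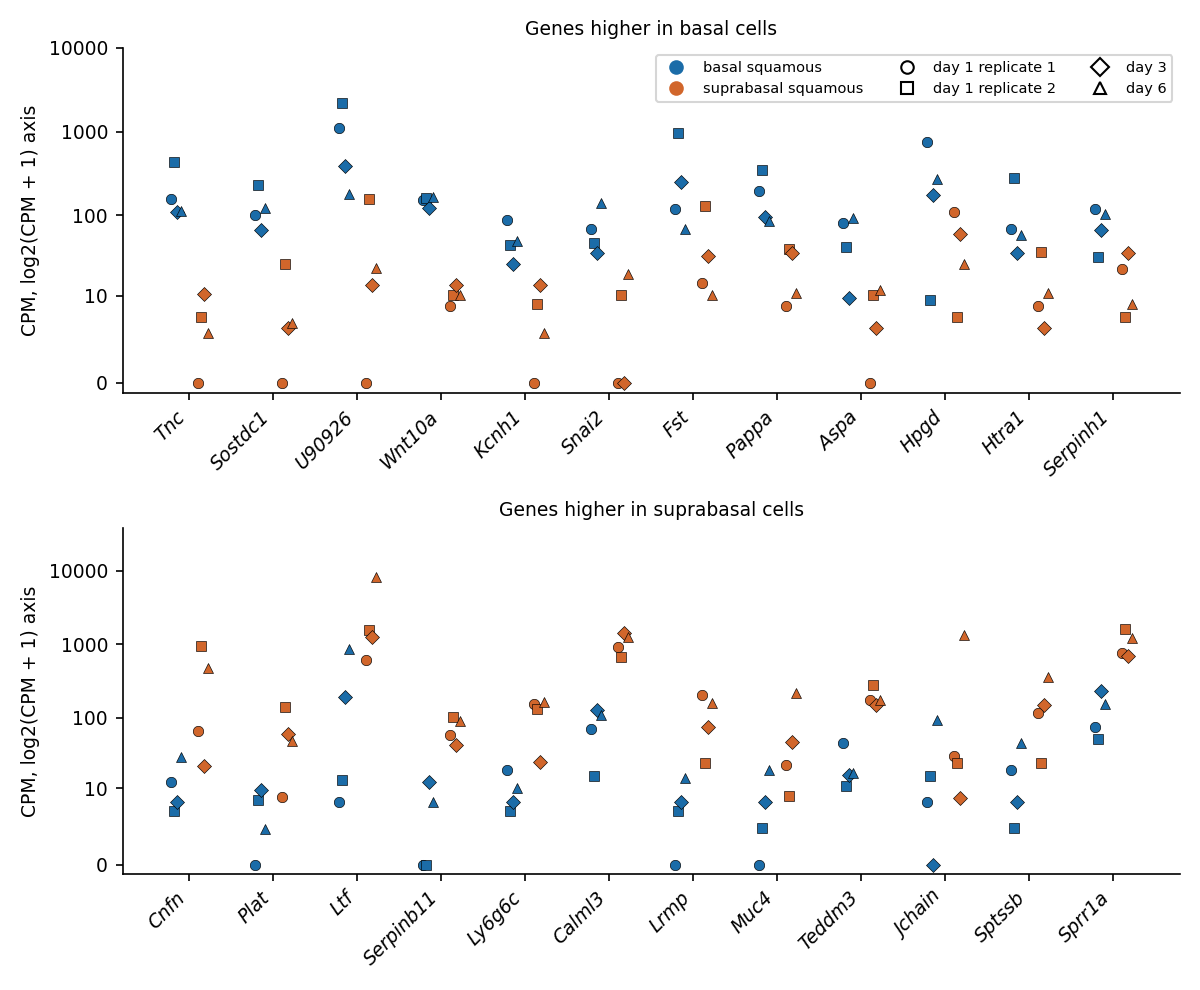
Level of the 12 genes with the largest change in each direction between basal and suprabasal squamous cells (CPM on a log2(CPM + 1) axis), 1 point per library and end of R, with a shape for each library. The genes were chosen to be higher in basal cells (upper panel) or in suprabasal cells (lower panel) in every library. Tnc is at 109 CPM or more in basal and at 10.5 CPM or less in suprabasal cells.

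Genes of attachment to the basement membrane were higher in basal than in suprabasal cells. Lamb3 and Lama3, which encode chains of laminin-332, the ligand of the hemidesmosome, rose. Lamb3 was at 299.9, 1428, 272 and 130.4 CPM in basal cells and 29.0, 283, 52.4 and 35.1 CPM in suprabasal cells (2.14 ± 0.20, adjusted p = 6.77e-07). Lama3 was at 325, 1913, 671 and 115 CPM against 94.3, 293, 157 and 72.5 CPM (1.69 ± 0.25, adjusted p = 0.00014). Day 1 replicate 2 had the highest level of both genes at both ends of R. Col7a1, which encodes the anchoring fibrils, did not pass the filter on low counts and was at 43.7, 6.53, 28.1 and 28.5 CPM in basal and 0, 5.10, 3.49 and 0.594 CPM in suprabasal cells. Summed, the laminin-332 and anchoring genes were at 794, 5267, 1224 and 326 CPM in basal cells. In columnar cells they were at 373, 879, 818 and 536 CPM, above the basal level at day 6.

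Of the hemidesmosome list 2 of 4 tested genes rose and none fell (median 0.67). Summed, this list was at 1737, 2805.5, 1752 and 1503 CPM in basal and 1227, 1509, 1582 and 1116 CPM in columnar cells. Dst, which encodes the plakin BPAG1, was at 325, 281, 144 and 465 CPM against 43.5, 102, 73.3 and 112 CPM (1.63 ± 0.21, adjusted p = 3.43e-05), without overlap between the ends. Itga6, the α6 integrin chain, was at 844, 1698, 790.1 and 552 CPM against 370.0, 754, 353 and 315 CPM (0.94 ± 0.15, adjusted p = 0.000275). Plec, plectin, had a change of 0.40 ± 0.16 (adjusted p = 0.12) and Cd151, a tetraspanin, of 0.10 ± 0.15 (adjusted p = 0.77). Itgb4, the partner of Itga6, has no row in the file of day 6, and in the other 3 libraries it had 0 UMIs in basal and suprabasal cells and 2 UMIs in columnar cells, so no level is given for it.

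Among 6 other integrins 3 rose and none fell. Itga3, a laminin receptor, was at 331, 485, 465 and 237 CPM against 65.3, 127, 164 and 75.5 CPM, without overlap (1.63 ± 0.17, adjusted p = 2.96e-06). Itga2, a collagen receptor, rose by 1.93 ± 0.40 although day 1 replicate 1 held 0 UMIs of it in basal cells, and Itgb1 rose by 0.68 ± 0.17. Of 16 tested genes of the basal layer list, 7 rose (Sostdc1, Wnt10a, Thbs1, Cav1, Cdh3, Fgfr2 and Id3), 1 fell and 8 did not pass, with a median of 0.55. Cav1, caveolin-1, was at 37.5, 161, 74.9 and 43.5 CPM against 7.25, 28.0, 27.9 and 9.51 CPM (1.98 ± 0.28), and Cdh3, P-cadherin of basal cell junctions, at 100.0, 263, 134 and 118 CPM against 72.5, 109.5, 66.4 and 23.2 CPM (1.34 ± 0.25). Id1, a target of BMP signals, was the member that fell (-0.56 ± 0.17, adjusted p = 0.032), while its relative Id3 rose (0.66 ± 0.15). No gene of this list, Id1 included, was called as lower without TMM, by DESeq2, without the library block, without day 1 replicate 1 or without day 1 replicate 2. The rises also depended on the setting. They were 4 of 15 tested genes once cells with 2 or more immune UMIs were left out. In thinned cells they were 2 of 11, and without the library block 2 of 14. DESeq2 called 7 of 16 and the fit without TMM 9 of 16. Cd44 (0.10 ± 0.20) and Egfr (0.02 ± 0.19) did not pass.

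DNA synthesis genes were higher in basal than in suprabasal cells as a group. Of 25 tested S-phase genes 16 rose, none fell and 9 did not pass, with a median of 1.15. Mcm6, a subunit of the replicative helicase, was at 100.0, 93.6, 53.1 and 174 CPM in basal and 21.8, 20.4, 31.4 and 30.3 CPM in suprabasal cells, without overlap (1.99 ± 0.28, adjusted p = 5.92e-05). Hells, a chromatin remodeler, was at 56.2, 50.1, 18.7 and 44.2 CPM against 14.5, 5.10, 10.5 and 5.94 CPM (2.38 ± 0.42), and Pcna, the sliding clamp, rose by 0.77 ± 0.18. Rrm2, the small subunit of ribonucleotide reductase, was at 231, 178, 122 and 78.1 CPM against 94.3, 51.0, 48.9 and 33.9 CPM (1.25 ± 0.21), and Tyms, thymidylate synthase and the enzyme that 5-fluorouracil inhibits, at 31.2, 37.0, 37.5 and 78.1 CPM against 7.25, 15.3, 17.5 and 31.5 CPM (1.15 ± 0.29, adjusted p = 0.011). The count was smaller without day 6, where 5 of 20 tested S-phase genes were called, and DESeq2 called 9 of 25. With the middle and suprabasal cells joined, 7 of 32 were called. Summed, the S-phase genes were at 2587, 1811, 1927 and 2549 CPM in basal and 1967, 2328, 1959 and 1958 CPM in middle cells. The middle cells were thus the higher in day 1 replicate 2 and day 3, and the difference was not particular to the basal part.

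Mitotic genes gave a smaller difference. Of 15 tested, 4 rose (Ccnb1, Kif11, Cenpa and Cdk1), none fell and 11 did not pass, with a median of 0.59. Ccnb1, cyclin B1, was at 93.7, 23.9, 62.5 and 62.5 CPM in basal and 21.8, 7.64, 38.4 and 23.2 CPM in suprabasal cells (1.22 ± 0.29, adjusted p = 0.0079). Mki67, the proliferation marker, had a change of 0.95 ± 0.33 (adjusted p = 0.069) and Top2a, topoisomerase II, of 0.59 ± 0.19 (adjusted p = 0.05), and neither passed. None of the list was called by DESeq2, without day 6, or with the middle and suprabasal cells joined.

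The share of cells with mitotic RNA was compared apart from the gene test, in cells thinned to 1000 UMIs, with at least 2 UMIs of 20 mitotic genes. It was 41.2% (7 of 17), 8.82% (6 of 68), 45.8% (33 of 72) and 17.7% (41 of 231) of basal cells, and 17.6%, 11.1%, 27.8% and 14.6% of suprabasal cells. Basal cells were the higher in 3 of 4 libraries and the lower in day 1 replicate 2. The mean difference was 10.6 percentage points ± 12.2 (SD, n = 4 libraries; exact sign-flip permutation test, two-sided, p = 0.25, where 0.13 is the smallest p possible), so no difference was shown. The middle cells had 52.9%, 32.2%, 38.89% and 28.6%, above the basal cells in all but day 3. Neutrophils, which do not divide, gave 4.84%, 5.50%, 43.8% (7 of 16) and 29.4% (5 of 17). Their gate set no limit on columnar genes. The median of Krt8, Krt18 and Lgals4 together was 8, 9, 24 and 8 UMIs in neutrophils and 23, 27, 27 and 23 UMIs in columnar cells. At day 3 the columnar markers summed to 8401 CPM in neutrophils and 5097 CPM in columnar cells. How far RNA of columnar cells entered the neutrophil shares was not tested, so they are not a clean background. At day 3 and day 6 the basal shares were not shown to exceed them at this depth. The median depth of the neutrophils was 2403, 2212, 3767.5 and 1483 UMIs, and without thinning the basal shares were 82.4%, 44.1%, 80.6% and 72.3%.

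**Figure D3:**
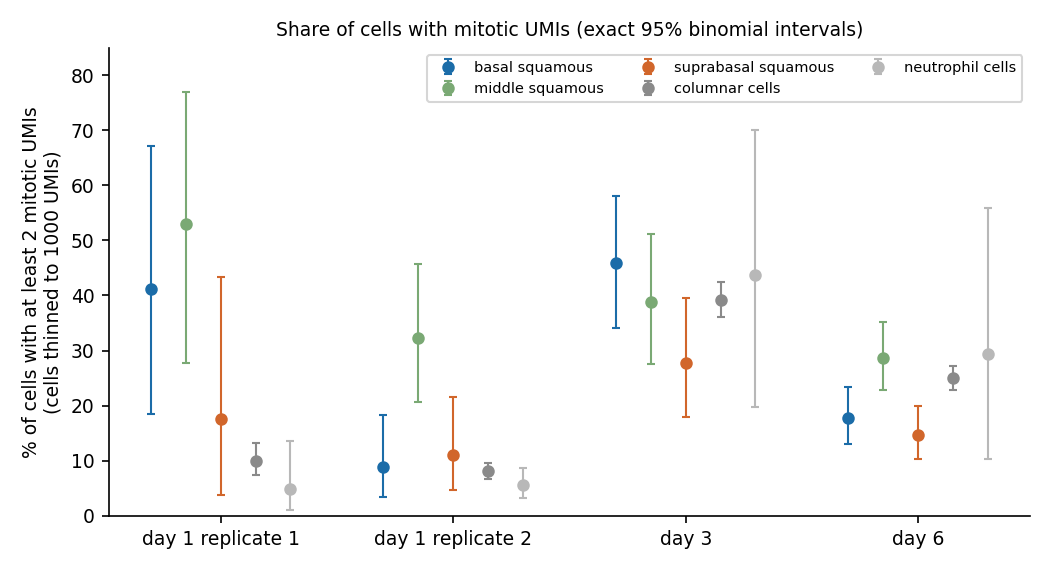
Share of cells with at least 2 mitotic UMIs after thinning to 1000 UMIs (points, in percent) with exact 95% binomial intervals that cover counting error only, by library, for basal, middle and suprabasal squamous cells and for columnar cells and neutrophils. The basal share ranges from 8.82% to 45.8%, and the neutrophil share from 4.84% to 43.8%.

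Genes of squamous differentiation were lower in basal cells. Of 21 tested genes of this list, which holds none of the genes that ordered the cells, 20 fell and 1, Cstb, did not pass (-0.44 ± 0.16, adjusted p = 0.08), with a median of -1.95. Calml3, a calmodulin-like protein of upper layers, was at 68.7, 15.2, 128 and 108 CPM in basal and 929, 680.2, 1439 and 1242 CPM in suprabasal cells, without overlap (-4.00 ± 0.24, adjusted p = 1.14e-08). Cnfn, cornifelin of the cornified envelope, was at 12.5, 4.35, 6.25 and 27.9 CPM against 65.3, 963, 21.0 and 481 CPM (-4.87 ± 0.42), and Sprr1a, a small proline-rich envelope protein, at 75.0, 50.1, 228 and 154 CPM against 755, 1610, 695 and 1230 CPM (-3.27 ± 0.35). Within each library the basal cells were the lower for all 3, as the choice of the named genes required. The suprabasal Cnfn level rested on few cells. In 1 cell of each library lay 8 of 9, 341 of 378, 4 of 6 and 490 of 809 UMIs. The small proline-rich Sprr2a1, whose reads may be shared with close copies, stayed high at the basal end, at 4443, 2044, 13038 and 6963 CPM against 5818, 3653, 21358 and 10993 CPM (-0.78 ± 0.11). Summed, the genes of the differentiation list were at 9597, 6310, 20764 and 14378 CPM in basal cells. In columnar cells they were at 17310, 15289, 32789 and 48166 CPM, and in neutrophils at 15640, 14351, 25487 and 18807 CPM. Whether the Sprr2a1 counts of basal cells arose in these cells was not tested.

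The largest changes toward suprabasal cells also held genes outside that list. These were Serpinb11 (-4.06 ± 0.46), Ly6g6c (-4.01 ± 0.33), Teddm3 (-3.55 ± 0.29), Sptssb (-3.32 ± 0.27), which encodes a subunit of the enzyme that starts sphingolipid synthesis, Lrmp (-3.76 ± 0.35), Muc4, a membrane mucin (-3.58 ± 0.34), and Plat, tissue plasminogen activator (-4.14 ± 0.40). Being lower in basal cells in 4 of 4 libraries was a condition of their choice. Of the suprabasal Plat UMIs, 44 of 55 in day 1 replicate 2 and 50 of 79 at day 6 lay in 1 cell, and 14 of 21 Ly6g6c UMIs did in day 1 replicate 1 and 28 of 52 in day 1 replicate 2. In day 1 replicate 1 Plat had 0 UMIs in basal and 1 UMI in suprabasal cells. Ltf, lactoferrin of glands and mucosae, was at 6.25, 13.1, 190.5 and 865 CPM in basal and 602, 1567, 1240 and 8243 CPM in suprabasal cells (-4.10 ± 0.41). Jchain, the joining chain of immunoglobulin A of plasma cells, was at 6.25, 15.2, 0 and 93.7 CPM against 29.0, 22.9, 6.98 and 1336 CPM (-3.55 ± 0.40), and columnar cells carried it at 1049, 471, 6.35 and 1897 CPM. The immune markers Srgn (-1.54 ± 0.24) and Cd52 (-1.12 ± 0.34) were lower in basal cells too, 2 of 4 tested of the immune list.

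Transcription factors that drive differentiation were lower in basal cells, while Sox2 and Pitx1 were not shown to differ. Of 16 tested, 8 fell, 2 rose and 6 did not pass (median -0.75). Zfp750, which switches keratinocytes to differentiation, was at 0, 10.9, 24.98 and 21.1 CPM in basal and 239, 119.7, 175 and 137 CPM in suprabasal cells (-3.24 ± 0.30, adjusted p = 7.66e-07). Grhl3 (-2.85 ± 0.31), Grhl1 (-2.23 ± 0.33), Ovol1 (-1.64 ± 0.31), Klf4 (-1.19 ± 0.18) and Barx2 (-0.73 ± 0.17) fell as well. Tfap2c (1.42 ± 0.37) and Sox15 (0.73 ± 0.22) rose. Sox2 was at 137, 63.1, 78.1 and 223 CPM in basal and 123, 73.9, 122 and 223 CPM in suprabasal cells (-0.29 ± 0.19, adjusted p = 0.38), and Pitx1 at 475, 307, 497 and 388 CPM against 588, 278, 475 and 377 CPM (-0.14 ± 0.15, adjusted p = 0.64), with wide overlap. The 2 rises were not called by DESeq2, nor without day 3 or without day 6, where 7, 9 and 7 factors fell.

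In the Notch pathway, through which cells leaving the basal layer begin to differentiate, 3 of 6 tested genes fell and none rose. Notch3, a receptor that Notch signals themselves induce, was at 0, 19.6, 12.5 and 16.3 CPM in basal and 152, 58.6, 115 and 109 CPM in suprabasal cells, without overlap (-2.89 ± 0.33, adjusted p = 7.84e-06). Nrarp, a feedback target, was at 6.25, 13.1, 24.98 and 23.8 CPM against 79.8, 89.2, 97.8 and 111 CPM (-2.49 ± 0.27), and the target Hes1 fell by less (-0.62 ± 0.18, adjusted p = 0.029). The receptor Notch1 (0.34 ± 0.19) and the ligand Jag1 (0.05 ± 0.18) did not pass. The ligands Jag2 and Dll1 were under the filter on low counts, at 21.8 to 31.2 CPM and 9.37 to 37.5 CPM in basal cells against at most 7.25 and 6.98 CPM in suprabasal cells.

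Desmosomal genes, whose products join neighboring cells, fell in 5 of 8 tested members and rose in none (median -1.13): Dsc2 (-1.89 ± 0.22), Pkp1 (-1.22 ± 0.17), Jup (-1.15 ± 0.18), Perp (-1.15 ± 0.17) and Dsg3 (-1.11 ± 0.21). Dsc3, the desmocollin of basal layers, was at 312, 205, 99.9 and 186 CPM against 399, 173, 73.3 and 121 CPM (0.12 ± 0.18) and did not pass. Stress keratins and alarmins fell in 5 of 9 tested members and rose in none. Krt6a, induced in injured epithelium, remained abundant in basal cells at 4630, 10380, 6980 and 2551 CPM, against 16244, 25065, 9401 and 10651 CPM (-1.53 ± 0.19), and its partner Krt16 fell by 1.95 on the log2 scale (± 0.38). S100a8 (-1.66 ± 0.29), S100a9 (-1.83 ± 0.26) and Defb14 (-3.42 ± 0.44) also fell, and S100a8 and S100a9 are made by neutrophils as well. Of 7 squamous genes that the study named, 3 fell, among them Anxa1 (-1.65 ± 0.18) and Ecm1 (-1.30 ± 0.20), and Ly6a was not shown to differ (-0.11 ± 0.14).

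Of 7 tested genes of the EGF family 1 rose and 2 fell. Over all tested genes, 6.11% were called as higher and 7.42% as lower in basal cells. Nrg1, a ligand of ErbB3, was at 87.5, 239, 62.5 and 105 CPM in basal and 7.25, 22.9, 10.5 and 53.5 CPM in suprabasal cells (1.76 ± 0.33, adjusted p = 0.0012), while its receptor Erbb3 was at 18.7, 30.5, 50.0 and 35.3 CPM against 94.3, 84.1, 94.3 and 74.9 CPM (-1.38 ± 0.25, adjusted p = 0.000685). Ligand and receptor thus stood at opposite ends of R, with no overlap for either. Hbegf fell (-0.85 ± 0.24), and 4 did not pass. Of 10 cytokines and chemokines Cxcl1, which draws neutrophils, rose (1.24 ± 0.41, adjusted p = 0.049), Il33, an alarmin of epithelial nuclei, fell (-0.95 ± 0.26), and 8 did not pass. A call of 1 in 10 in each direction is close to the shares over all genes and is no result about the list. No cytokine was called as higher by DESeq2, nor without day 1 replicate 1 or without day 1 replicate 2. Cxcl5 was at 887, 2531, 1015 and 685 CPM in basal cells and was not shown to differ (-0.24 ± 0.15, adjusted p = 0.36). Of 13 p53 targets 1 fell, Cdkn1a, the cell cycle inhibitor p21 (-0.52 ± 0.17, adjusted p = 0.049), at 506, 689.9, 809 and 156 CPM against 704, 729, 849 and 295 CPM. No p53 target was called by DESeq2, without TMM, without day 1 replicate 2 or without day 6, and 1 of 13 is close to the 7.42% of all genes. None of 16 tested interferon and antigen presentation genes was called in either direction (median 0.06). Of 10 columnar markers Krt20 fell (-0.997 ± 0.16) and 9 did not pass, again close to the share over all genes. Summed, the columnar markers were at 2887, 1060, 2701 and 1668 CPM in basal against 7513, 4456, 5097 and 6139 CPM in columnar cells.

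**Figure D4:**
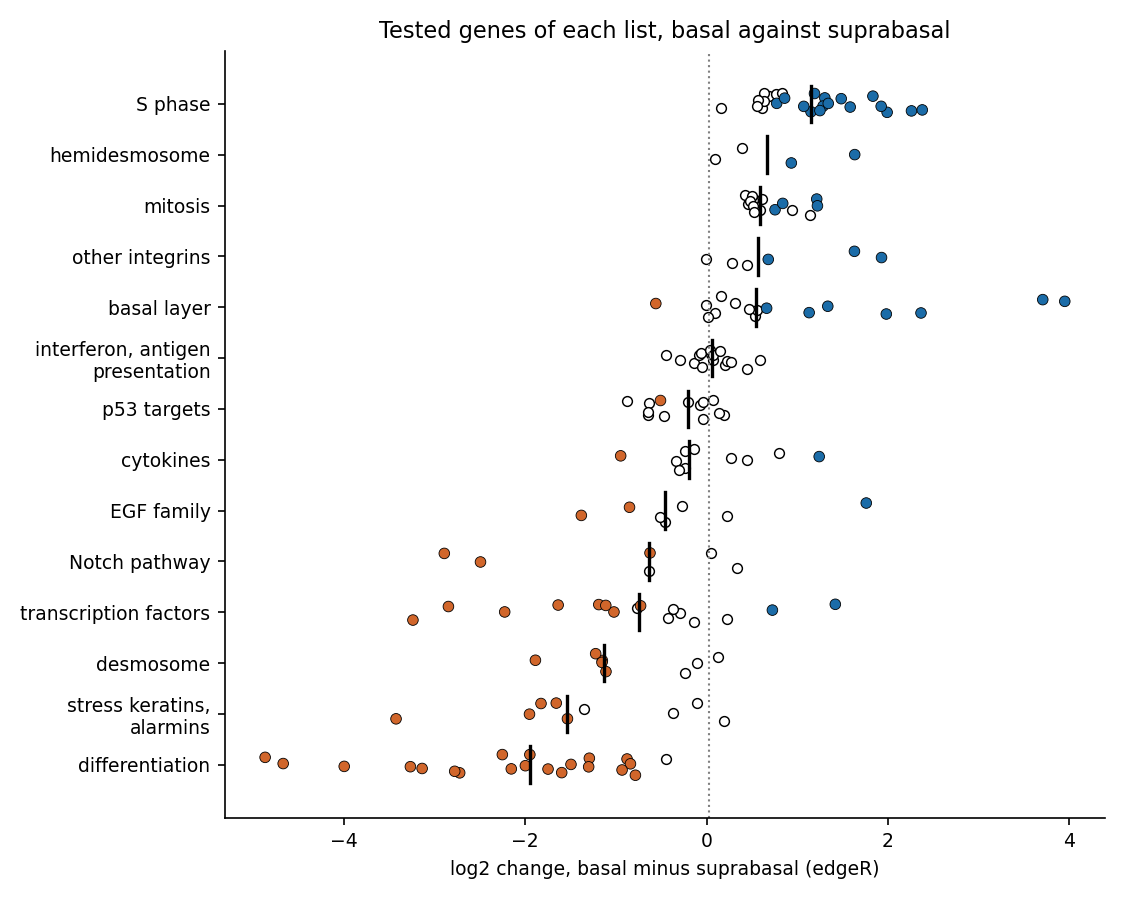
Log2 change between basal and suprabasal squamous cells (edgeR, positive where basal cells are higher) of the tested genes of each list, 1 point per gene, filled where the adjusted p is under 0.05 and open otherwise, with a bar at the median of the list and a dotted line at the median of all 7321 genes (0.03). S-phase genes lie to the right, differentiation genes and desmosomal genes to the left.

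The number of genes called depended on day 6, the deepest set of basal cells, and on the pairing within libraries: 497 of 6384 tested genes were called without day 6 and 25 of 5941 without the library block. DESeq2 called 494, all among the 990, and 448 of 5506 tested genes were called after cells with 2 or more immune UMIs were left out, 435 of them among the 990.

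The second comparison asked whether basal cells of late tumors differed from those of early tumors, with 2 libraries on each side. No gene of 6782 tested reached an adjusted p under 0.05 in edgeR (0%). At an unadjusted p under 0.05, 178 genes were higher (2.62%) and 99 lower (1.46%) in late basal cells. DESeq2 called 6 genes. Without day 3 or without day 1 replicate 1, edgeR called 114 and 44 genes, where the library left alone in its group borrows the spread of the other. With the index structure as a block, 12 were called. The values below are therefore levels in 4 libraries and not established changes.

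Interferon and antigen presentation genes had the largest count at an unadjusted p under 0.05, with 7 of 13 tested higher and none lower in late cells, and a median log2 difference of 1.90 beside 0.02 for all genes. B2m, the light chain of class I molecules, was at 381, 84.9, 359 and 1922 CPM (2.42, unadjusted p = 0.026). H2-K1, a class I heavy chain, was at 756, 176, 1237 and 2240 CPM (2.03, unadjusted p = 0.028), and Psmb9, a subunit of the immunoproteasome, at 6.25, 2.18, 31.2 and 95.1 CPM (4.30, unadjusted p = 0.000884). For H2-K1 and Psmb9 both late libraries were above both early libraries. For B2m day 3 did not exceed day 1 replicate 1, and day 6 stood above the rest. Within the single index and the dual index pair of libraries the log2 difference was 0.89 and 3.67 for H2-K1, 0.09 and 4.47 for B2m, and 1.99 and 4.17 for Psmb9. Outside basal cells H2-K1 was at 740.0, 252, 1348 and 2342 CPM in suprabasal and at 709.8, 409.7, 1358 and 3329 CPM in columnar cells. Summed, the 23 genes of the list were at 5511, 1867, 6115 and 12732 CPM in basal and at 5494, 3022, 4728 and 17476 CPM in columnar cells, so day 3 was above day 1 replicate 1 in basal cells and below it in columnar cells.

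Lamb3 was at 299.9, 1428, 272 and 130.4 CPM, lower in late cells at an unadjusted p under 0.05 (-2.03, unadjusted p = 0.033), with day 1 replicate 2 the highest library and no overlap between the groups. Within the 2 index structures the difference was 0.04 and -3.39, so the lower late level was seen in the dual index pair alone. Krt1, a keratin of cornifying epithelium, had 0 UMIs in basal cells of day 1 replicate 1, no row in the file of day 1 replicate 2, and was at 31.2 and 26.5 CPM in the late libraries. The floor of 3 UMIs was 18.7 CPM in day 1 replicate 1.

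By a rule that also asked for the same sign within both index structures, Ltf (5.67, unadjusted p = 0.000113), Krt4 (3.43, a description, since R reads it), Xist, Psmb9, Krt84 (2.90) and Chit1, a chitinase (3.63), were the 6 named for higher and Csn1s1, a casein (-4.17, unadjusted p = 0.000108), Ddx3y (-6.30), Slc38a4 (-2.76), Cyr61, a matrix protein (-4.07), Cadm2 (-3.41) and Cdo1 (-2.46) the 6 named for lower levels in late cells. Their adjusted p was between 0.312 and 0.516. Csn1s1 was at 156, 398, 9.37 and 17.7 CPM in basal cells. In day 1 replicate 1, single basal cells held 16 of 25 Csn1s1 UMIs, 19 of 25 Cdo1 UMIs and 27 of 50 Cadm2 UMIs. Krt84, a hair keratin, was at 12.5, 17.4, 78.1 and 143 CPM. Xist was at 0, 0, 31.2 and 204 CPM and Y-linked Ddx3y at 93.7, 39.2, 0 and 0.679 CPM. These 2 genes of the sex chromosomes stand among the 12 named.

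**Figure D5:**
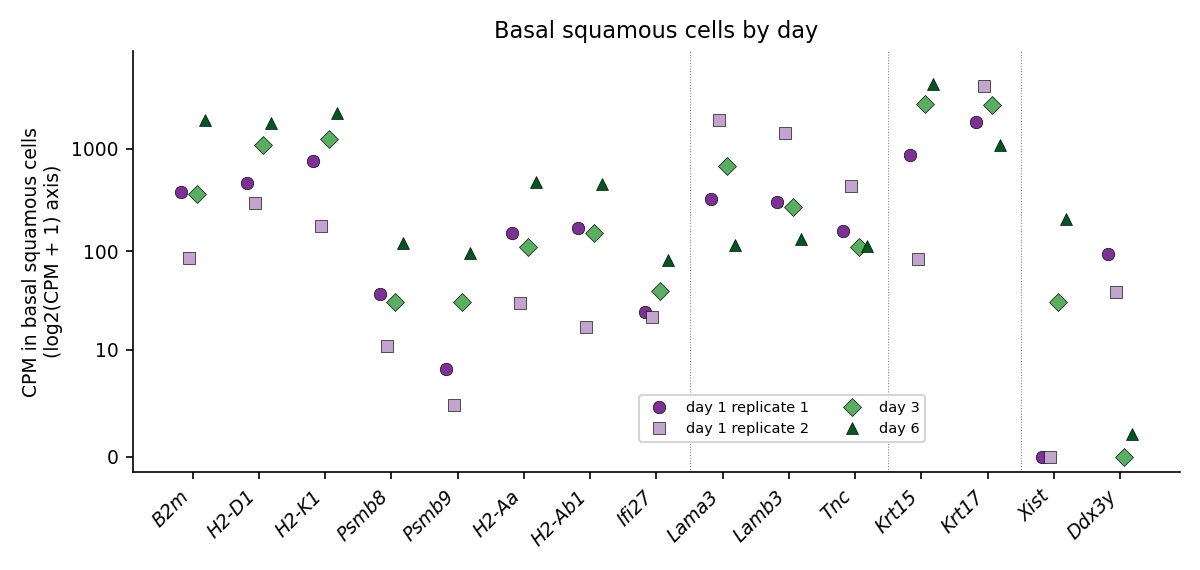
Level of 15 genes in the basal squamous cells of each library (CPM on a log2(CPM + 1) axis, 1 point per library). From left to right stand antigen presentation genes, matrix genes, the basal keratins of the rule and 2 genes of the sex chromosomes; Xist is at 0 in both early libraries and Ddx3y at 0 and 0.679 CPM in the late ones.

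The share of basal cells with mitotic UMIs was 6.79 percentage points higher in the late libraries (exact permutation test of 2 against 2 libraries, two-sided, p = 0.667, with 0.33 the smallest p possible). Within each index structure the later library had the higher share, but the sign turned without day 1 replicate 2 (-9.39) and without day 3 (-7.25). The 2 early libraries alone spanned 8.82% to 41.2%, more than the distance between the groups.

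The third comparison asked whether a late-early difference was larger in basal than in suprabasal cells, as an interaction in the same edgeR model. Of 7321 genes 5 were called (0.0683%): Ltf, Hbb-bt, Chit1 and Hbb-bs, whose basal level rose relative to the suprabasal one, and Igha, whose basal level fell relative to it. No gene of the attachment, S-phase, Notch, desmosome or interferon lists was called, and in thinned cells 0 of 1953 tested genes were. The late-early difference of the other genes was thus not shown to be particular to basal cells.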

How the data were processed

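Colon cells were captured in droplets by inDrop. Each deposited file is 1 library, a matrix of UMI counts by barcode and gene that the authors produced with dropEst against GRCm38 and left unnormalized. Here barcodes were dropped below 500 genes or above 15% mitochondrial UMIs, as in the study, and no doublet caller was run. The basal cells and all gene lists were chosen with earlier results of these data known. From when the days of treatment are counted is stated in different ways by the sources. Columnar cells had at least 10 UMIs of the columnar genes and more of them than of Krt5 and Krt14, and neutrophils at least 10 UMIs of S100a8 and S100a9 with at least 1 of Csf3r and Cxcr2. A gene with no row in a library's file was counted as 0 there (among named genes Itgb4 at day 6, Krt1 in day 1 replicate 2, Xist in day 1 replicate 1 and Eif2s3y at day 3). UMI counts were summed per library and end of R. Genes passing filterByExpr were tested with edgeR 4.0.16 (glmQLFit and glmQLFTest, TMM, two-sided, Benjamini-Hochberg) in R 4.3.3, with DESeq2 1.42.0 as an alternative, after testing on simulated data. SEs are the log2 change divided by the root of the F statistic. CPM are unscaled. Levels are compared between cells, not between genes. The replicates are separate libraries. For basal against suprabasal and for the interaction the library was a block. The p-values there measure how the difference within a library varies from library to library. For late against early, p-values measure the spread between libraries. For late against early this spread also holds the index structure, which differs within each group, and in the late group the day, since day 3 and day 6 had 1 library each. For basal against suprabasal, the named genes are the 12 with the largest log2 change per direction among called genes with the same sign in 4 libraries and at least 50 CPM in the higher end, without mitochondrial, ribosomal and unnamed genes. For late against early and the interaction they are the 6 per direction with the smallest p. Other named genes are members of the lists with the largest changes or defining roles. Thinning drew 1000 UMIs per cell with a fixed seed. Alternatives changed the scaling, filter, cut of R, depth, immune cells, block and each library. Intervals cover counting error only. Some genes are not reported here.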

Additional observations from a re-analysis of the deposited data

Results flagged for a closer look

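The late-early difference was tested for a difference between basal and suprabasal cells, and 5 genes passed (edgeR interaction, Benjamini-Hochberg adjusted). Without day 1 replicate 2 none of the 5 passed (3 other genes did), and DESeq2 called 1, Ltf. Ltf had a difference of 3.87 on the log2 scale (adjusted p = 0.000965): its basal level went from 6.25 and 13.1 CPM in the early to 190 and 865 CPM in the late libraries, while the suprabasal level went from 602 and 1567 to 1240 and 8243 CPM. In columnar cells Ltf was at 13.9, 21.0, 194 and 524 CPM.

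Hbb-bt (6.59, adjusted p = 0.0307) and Hbb-bs (5.08, adjusted p = 0.0462), the beta-globins of red cells, rested on single cells. Of the 171 Hbb-bt UMIs in basal cells of day 3, 168 lay in 1 cell, and of the 238 in suprabasal cells of day 1 replicate 2, 216 lay in 1 cell. For Hbb-bs, 151 of 154 and 982 of 1590 UMIs did.

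Chit1 had a difference of 3.18 (adjusted p = 0.0462), with 37.5, 4.35, 149.9 and 221 CPM in basal and 334, 30.6, 220.0 and 149.8 CPM in suprabasal cells. Igha, the heavy chain of immunoglobulin A, had a difference of -2.76 (adjusted p = 0.0462). It was at 733 CPM in basal and 5021 CPM in suprabasal cells at day 6, where 1 suprabasal cell held 1925 of 8447 UMIs and columnar cells stood at 6121 CPM.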

How the results depend on the processing

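Genes called between basal and suprabasal cells numbered 990. Of the alternatives, DESeq2 gave 494, thinned cells 155, leaving out cells with 2 or more immune UMIs 448, no replicate block 25, and the middle and suprabasal cells joined 605. Leaving out 1 library gave 497 to 993. Late against early gave 0 calls, with 6 by DESeq2, 41 without the filter on low counts, 12 with the index structure as a block, and 4 to 114 with 1 library left out. The interaction gave 5, with 1 by DESeq2, 18 without the filter, 11 with squamous cells cut into 2 parts by R, 0 in thinned cells, 9 in cells of at least 2000 UMIs, 3 without cells of 2 or more immune UMIs, and 3 to 25 with 1 library left out (without day 1 replicate 2, 0 of the 5 were among the 3), where the lone library of a group is assumed to vary like the others. The late minus early share of mitotic basal cells of 6.79 percentage points ranged from -9.39 (without day 1 replicate 2) to 23.0 (without day 1 replicate 1) with 1 library left out, and was -7.25 without day 3. For the named genes of basal against suprabasal, 326 of 337 repeats kept direction and call, and 11 kept the direction only. With 17 basal cells in day 1 replicate 1, depth limits what that library can show.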

Other observations

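Lgr6, a receptor of stem cells in skin, was chosen after its values were seen. It was at 106, 326, 184 and 53.7 CPM in basal cells, 48.4, 143, 126 and 40.3 CPM in middle cells and 7.25, 155, 31.4 and 7.13 CPM in suprabasal cells, so basal cells were the highest of the 3 in each library. In columnar cells it was at 0.718, 4.72, 10.1 and 1.24 CPM.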
